A study of Mus musculus with 8 samples.

Results

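Natural killer (NK) cells of the mouse kidney were compared between kidneys with an obstructed ureter and control kidneys. The NK cells are the 802 cells that the authors assigned to the class NK, out of 77393 cells from 8 single-cell libraries. They were taken by that class name alone. UUO 1 and UUO 2 are whole kidneys after unilateral ureteric obstruction, in which the left ureter is tied and the kidney behind it is injured by back pressure and inflamed. Control 1 to Control 6 are whole kidneys labelled control. All mice were C57BL/6 animals of 7 weeks with no other allele or agent named. Every sample, Controls included, carries the same treatment note, ligation with sacrifice on day 7. The Control samples were therefore recognised by title and disease label, and whether they were sham-operated is not stated. The UUO samples held 530 of the NK cells and the Control samples 272.

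NK cells are innate lymphocytes. They recognise stressed, infected or transformed cells through a balance of activating and inhibitory receptors instead of a rearranged antigen receptor, kill them with perforin and granzymes, and release interferon gamma. Their cytotoxic programme is shared in part with NKT cells and effector CD8 T cells, which lie next to them in most single-cell maps. The genes named as markers of the class are Ncr1, which encodes an activating receptor of NK cells, Gzma, a granzyme, and Klrb1c, a lectin-like receptor that NKT cells also carry. The values analysed here are per cell and not per gene, so the class was not checked against these markers, and its name is that of the authors.

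Libraries held between 2263 and 18393 cells, with median UMIs (transcript molecules counted once each) per cell of 1292 to 2944. Control 3 and Control 4 stood apart from the other Control samples in their NK cells and resembled each other. Their numbers of cells over the 28 classes differed with a chi-square p of 0.0509, just above the cut-off of 0.05, against at most 4.09e-41 for every other pair of Control samples. They were therefore counted as 1 sample, called Control 3-4, which leaves n = 2 for UUO and n = 5 for Control. They shared only 10 cell barcodes, so they are not the same cells. The labels do not say whether each library is a different mouse, so the p-values reflect only variation among libraries, part of which may be technical. Of the NK cells, 65 carried a barcode that also occurred in another library, and 0 of these pairs had equal UMIs and genes.

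Whether NK cells take a larger place in the obstructed kidney was asked first, as a share of all cells recovered. UUO 1 held 235 NK cells, 1.28% of its cells (exact 95% binomial interval 1.12 to 1.45, counting error only), and UUO 2 held 295, 2.28% (2.03 to 2.55). Control 1 and Control 2 held 13 and 19 NK cells, 0.361% (0.192 to 0.617) and 0.295% (0.178 to 0.461). Control 5 and Control 6 held 58 and 54, 0.359% (0.273 to 0.464) and 0.395% (0.297 to 0.516). These 4 Control samples lay close together and below both UUO samples. Control 3 and Control 4 did not follow them, with 47 and 81 NK cells, 2.08% (1.53 to 2.75) and 2.05% (1.63 to 2.54). Both lay above UUO 1 and below UUO 2, so the groups overlapped.

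NK cells averaged 1.78% ± 0.710 of cells in the 2 UUO samples and 0.694% ± 0.764 in the 5 counted Control samples (SD), which is a ratio of 2.56. In log2 odds, UUO minus Control was 1.77 (95% interval 0.10 to 3.43), with a limma p-value adjusted over the 28 classes of 0.0623 and a two-sided exact permutation p of 0.0952. The share of NK cells therefore did not pass the threshold of 0.05, in a comparison where 50% of the classes did (21.4% higher and 28.6% lower in UUO) and where 46.4% of the classes did not overlap between groups. With Controls 3 and 4 kept as separate samples the log2 odds difference was 1.42 and did not pass (limma adjusted p 0.173). Leaving out Control 3-4 changed this call. The mean Control share was then 0.353% ± 0.0417 (SD, n = 4), the ratio 5.05, the log2 odds difference 2.28 and the adjusted p 0.00719. The difference was also called among the libraries of over 10000 cells alone, which are UUO 1 and 2 and Controls 5 and 6 (2.19, adjusted p 0.0426). That set has n = 2 in each group and leaves out Control 3-4 as well, so it is not a separate check. The limma interval rests on a variance shared by all classes, because the variance prior took over fully, and may be too narrow for NK. The limma calls of the other classes rest on the same variance. With edgeR the NK difference was 1.36 on the log2 scale (edgeR adjusted p 0.187), and 12 of the 28 classes passed.

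**Figure D1:**
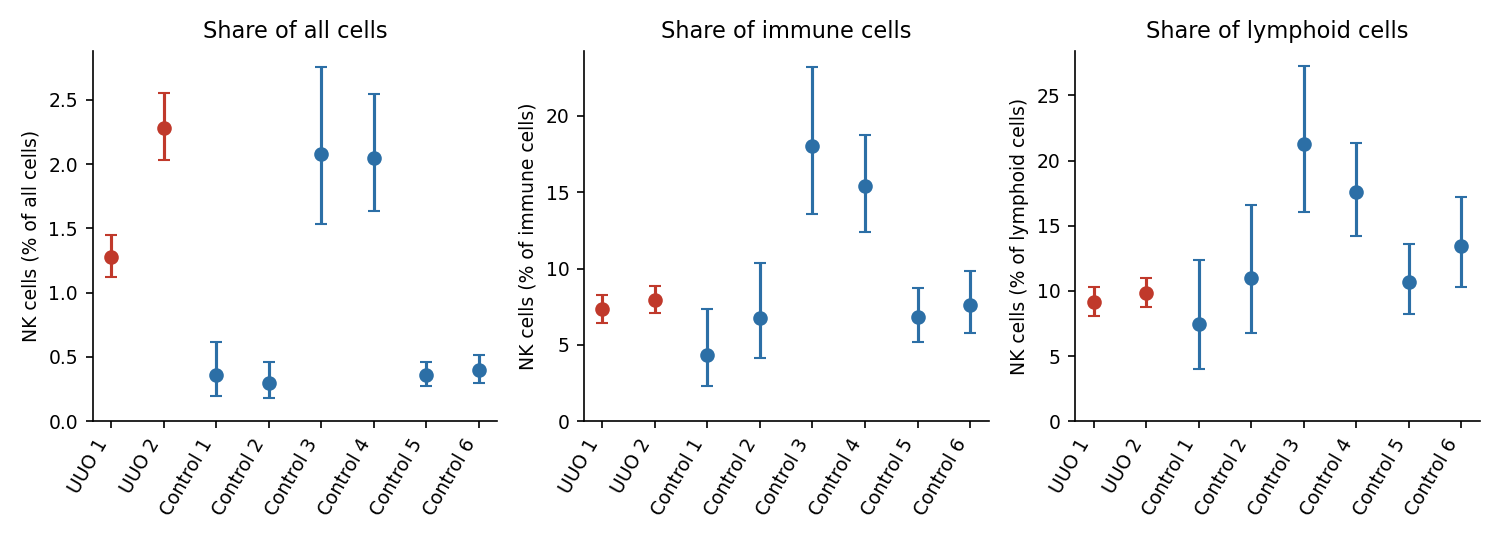
Percentage of NK cells among all cells, immune cells and lymphoid cells, by sample (points, red for UUO and blue for Control, with exact 95% binomial intervals that cover counting error only). As a share of all cells, Controls 3 and 4, at 2.08% and 2.05%, sit among the UUO samples, while the other 4 Control samples lie between 0.295% and 0.395%.

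The share of lymphoid cells was high in the same samples as the share of NK cells, which are part of it. The share of myeloid cells was highest in UUO 2 but was not high in Controls 3 and 4. Lymphoid cells, the 9 classes of lymphocytes including NK, were 14% and 23.2% of the cells in UUO 1 and 2. They were 9.77% and 11.7% in Controls 3 and 4 and 2.69% to 4.86% in the other Control samples. Myeloid cells were 3.43% and 5.52% of the cells in UUO 1 and 2. They were 1.77% and 1.65% in Controls 3 and 4 and 1.68% to 3.45% in the other Control samples, so Controls 3 and 4 were high in lymphoid cells but not in myeloid cells. The part played by blood left in the tissue or by how it was dissociated was not tested. Fewer tubular cells recovered and more NK cells present cannot be told apart in a share of all cells, so NK cells were next taken as a share of the leukocytes.

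Within the immune compartment the mean share of NK cells was close in both groups, and no difference was detected. They were 7.33% (6.45 to 8.29) and 7.95% (7.10 to 8.86) of the immune cells in UUO 1 and 2. In Controls 1, 2, 5 and 6 they were 4.35%, 6.76%, 6.82% and 7.62%, and in Controls 3 and 4 they were 18.0% (13.5 to 23.2) and 15.4% (12.4 to 18.8). The mean was 7.64% ± 0.435 over the 2 UUO samples and 8.36% ± 4.58 over the 5 counted Control samples (SD), and the samples overlapped. The log2 odds difference was -0.02 (95% interval -1.47 to 1.43, limma adjusted p 0.976, exact permutation p 1). The interval is wide, so differences within it were not detectable with these samples. In this comparison 0% of the 15 immune classes passed with limma (2 at an unadjusted p under 0.05) and with edgeR (1 at an unadjusted p under 0.05), and 26.7% did not overlap between groups. Without Control 3-4 the Control mean was 6.39% ± 1.41 (SD, n = 4) and the difference had the other sign (0.28, adjusted p 0.584).

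Among lymphocytes alone, NK cells were 9.13% (8.04 to 10.3) and 9.84% (8.80 to 11.0) in UUO 1 and 2. The Control samples 1, 2, 5 and 6 held 7.43%, 11.0%, 10.7% and 13.5%, and Controls 3 and 4 held 21.3% and 17.6%. Both UUO samples lay inside the Control range. NK cells averaged 9.48% ± 0.505 of lymphoid cells over the 2 UUO samples and 12.3% ± 4.22 over the 5 counted Control samples (SD). UUO minus Control was -0.37 in log2 odds (interval -1.39 to 0.65, limma adjusted p 0.419, exact permutation p 0.476). Of the 9 lymphoid classes, 0% passed with limma (2 at an unadjusted p under 0.05) and with edgeR (2 at an unadjusted p under 0.05), and 22.2% did not overlap between groups.

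The rank of NK among the 9 lymphoid classes differed between samples. By number of cells they ranked 5 and 6 in UUO 1 and 2. In Controls 1 to 6 they ranked 4, 3, 2, 2, 4 and 2. Classes that outnumbered NK cells in both UUO samples were CD4 T, Th17, Treg and CD8 T.

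Each other immune class was then set against NK directly, as the number of NK cells per cell of that class in the same sample. This ratio does not depend on the other cells recovered, but a difference in either class moves it. Against Th17 cells, helper T cells that make interleukin-17, UUO 1 and 2 held 0.664 and 0.831 NK cells per Th17 cell. Control 1 to Control 6 held 1.63, 1.73, 2.61, 2.53, 1.38 and 2.35. NK cells thus outnumbered Th17 cells in every Control sample and were outnumbered by them in both UUO samples. The log2 difference was -1.32 (95% interval -2.41 to -0.23), a ratio of 0.401, with an exact permutation p of 0.0476, the smallest that 7 samples allow. Its limma p-value was 0.0238 unadjusted and 0.328 after adjustment over the 14 classes, which does not pass.

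Set against Treg, CD8 T, CD8 effector and CD4 T cells, the fitted differences also lay below 0. Per regulatory T cell (Treg, which restrain immune responses) there were 0.719 and 0.739 NK cells in UUO 1 and 2. The Control samples held 1.18, 3.80, 0.940, 0.681, 1.57 and 1.64. Control 4 alone lay below both UUO samples, and the groups did not overlap only with Controls 3 and 4 pooled. Per CD8 T cell UUO 1 and 2 held 0.987 and 0.875 NK cells, against 1.30, 2.71, 1.31, 1.19, 2.76 and 1.93 in Control 1 to Control 6, with no overlap. Per CD8 effector cell, the cytotoxic T cell class, UUO 1 and 2 held 1.09 and 0.778 and the Control samples 1.08 to 5.22, and these overlapped. The log2 differences were -1.06 (Treg), -0.99 (CD8 T), -1.04 (CD8 effector) and -0.78 (CD4 T). None passed (limma adjusted p 0.328, 0.328, 0.328 and 0.554), and the CD4 T value was -0.31 without Control 3-4 and -0.50 without UUO 1. The groups did not overlap for 21.4% of the 14 classes compared with NK, namely Th17, Treg and CD8 T, and limma called 0% of them (1 at an unadjusted p under 0.05, Th17).

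NKT cells, T cells that carry NK receptors, had the least variable ratio to NK cells of the 14 classes. There were 1.51 and 1.23 NK cells per NKT cell in UUO 1 and 2, and 0.929, 1.58, 1.31, 1.19, 0.892 and 1.20 in Control 1 to Control 6. The highest ratio was 1.77 times the lowest over the 8 samples, Controls 3 and 4 included, while the share of NK cells among all cells varied from 0.295% to 2.28%. The log2 difference was 0.26 (95% interval -0.80 to 1.32, limma adjusted p 0.656). B lymphocytes, which make antibodies, varied far more relative to NK cells. UUO 1 and 2 held 3.46 and 1.93 NK cells per B lymphocyte, Controls 1, 2, 5 and 6 held 0.260, 0.322, 1.18 and 1.54, and Controls 3 and 4, with only 1 and 4 B lymphocytes, held 47.0 and 20.3. The difference of 0.98 had an interval of -2.75 to 4.72 (adjusted p 0.656). It was 2.03 without Control 3-4 (adjusted p 0.0911), and 0.41, 0.49 and 0.57 without Control 1, Control 2 or UUO 1. With the 8 samples kept separate it was 0.28 (limma adjusted p 0.885).

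Macrophages, the resident phagocytes, had the highest difference of the 14 classes, in the other direction. UUO 1 and 2 held 5.34 and 4.47 NK cells per macrophage. Controls 1, 2, 5 and 6 held 0.188, 0.404, 1.29 and 1.46, and Controls 3 and 4 held 6.71 and 5.79, above both UUO samples. The log2 difference was 2.31 (95% interval -0.49 to 5.11, adjusted p 0.328). As shares of immune cells, the log2 odds difference was -0.02 for NK cells and -2.46 for macrophages (limma adjusted p 0.976 and 0.240). As shares of all cells it was 1.77 and -0.57 (limma adjusted p 0.0623 and 0.550). Which class moved the ratio therefore depends on the denominator and cannot be told from these shares. Without Control 3-4 the log2 difference in the ratio was 2.96 and passed (adjusted p 0.0269). Among the libraries of over 10000 cells alone, which also lack Control 3-4, it was 1.83 and passed (adjusted p 0.0404). With the 8 samples kept separate it was 1.88 and did not pass (limma adjusted p 0.437). The other classes had log2 differences of 1.33 (pDC), 1.16 (Prolif Ly), 0.77 (DC), 0.53 (Mono), 0.0002 (Neutro) and -0.99 (Baso), and none of them passed.

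**Figure D2:**
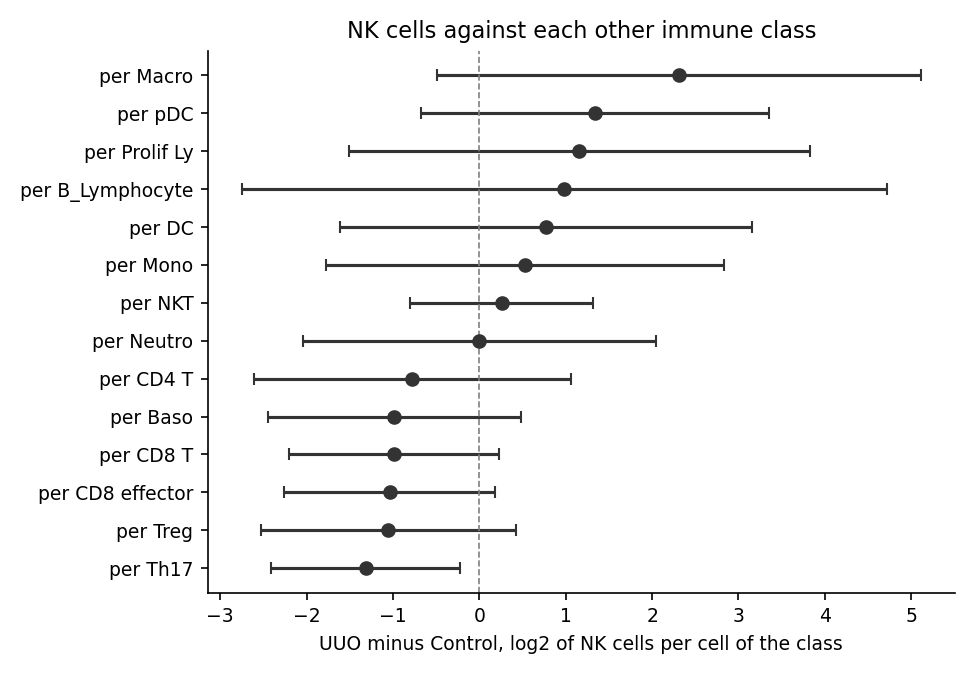
Difference between UUO and Control (UUO minus Control) in the log2 number of NK cells per cell of each other immune class (points, with limma 95% intervals, n = 2 UUO and 5 Control samples). Macrophages lie at the top at 2.31 and Th17 cells at the bottom at -1.32, and the interval lies wholly on 1 side of 0 for Th17 alone, which did not pass after adjustment.

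In the authors' embedding, a UMAP map in which cells with similar transcriptomes lie close together, the NK cells of all samples made up a single tight group at the edge of the lymphoid cells. The map and the classes come from the same transcripts, so its distances describe the class and do not test it. Of the 15 nearest neighbours of an NK cell, drawn from all 25200 cells on the map, 97.8% were NK cells on average, and 675 of the 802 NK cells had only NK neighbours. The same figure was 82.9% for CD8 effector, 81.8% for NKT and 56.7% for CD8 T cells, and NK ranked 4 among the 27 classes on the map. The few neighbours from other classes were NKT (0.865%), CD8 T (0.490%), Prolif Ly, the proliferating lymphocytes (0.416%), and CD8 effector (0.341%). The class whose median lay closest was CD8 effector, at 3.07 map units, before NKT at 3.92 and CD8 T at 4.01, while the median NK cell lay 0.414 units from the centre of its own class. In the other direction, 16 cells of other classes, among them 7 NKT, 4 CD8 T and 3 CD8 effector cells, had mostly NK neighbours.

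The position of the NK group on the map did not differ detectably between obstructed and Control kidneys. Median coordinates were -11.03 and -11.06 on the first axis in UUO 1 and 2 and between -11.16 and -10.95 in the 6 Control samples. On the second axis they were -3.12 in both UUO samples and between -3.20 and -3.07 in the Control samples. The distance between the group means of the samples with at least 20 NK cells (n = 2 UUO, n = 3 Control) was 0.0463 map units, with an exact permutation p of 0.60. These 5 samples can be divided in 10 ways, so the smallest p they allow is 0.10.

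Only 5 NK cells lay more than 3 units from the class centre. Of these, 1 in UUO 1, 2 in UUO 2 and 1 in Control 2 sat together with the proliferating lymphocytes, which were 12 or 13 of their 15 neighbours. They held 5856, 4674, 4146 and 5765 UMIs, against a median of 1860 over all NK cells, and 1.40% to 2.40% mitochondrial UMIs. The other, in Control 6, held 7949 UMIs and 2703 genes, the most genes of any NK cell, with 19.98% mitochondrial UMIs and 0 NK neighbours. Doublets were not called here, since that needs counts per gene.

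**Figure D3:**
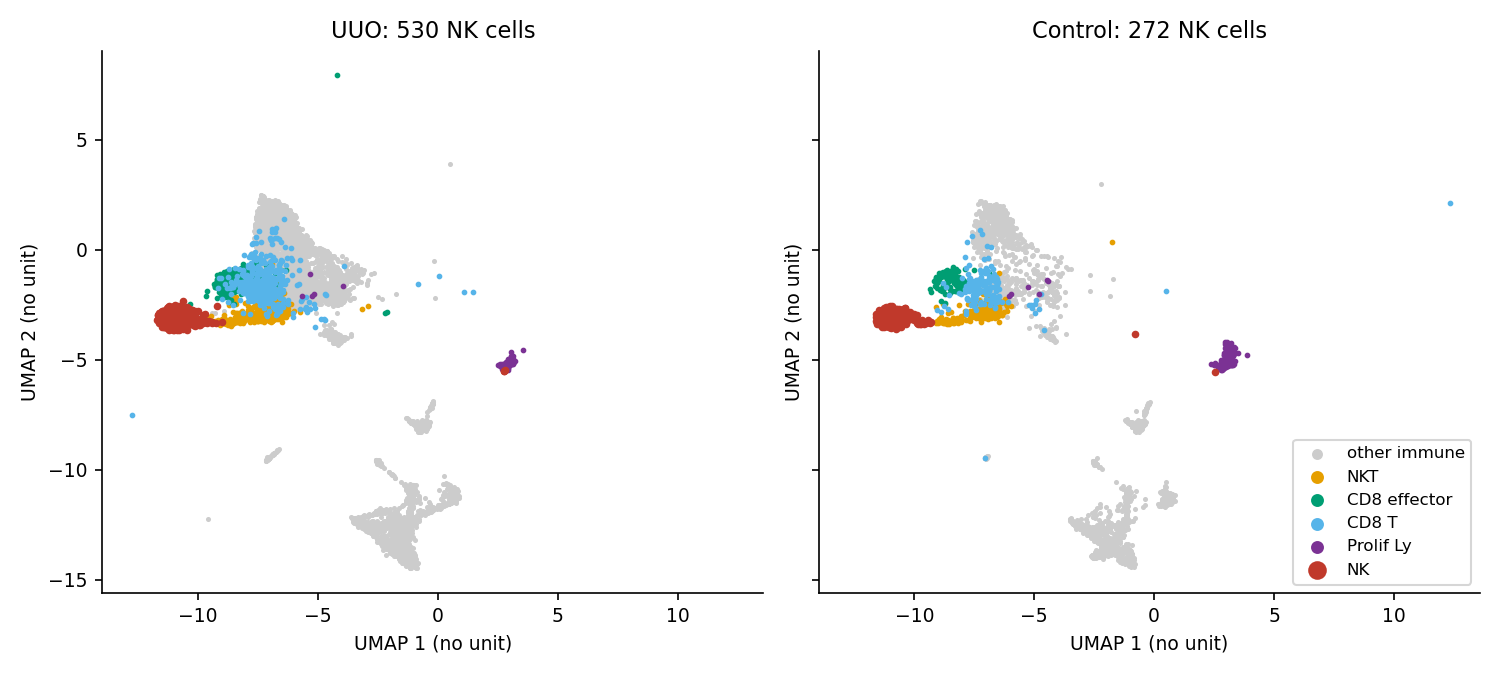
Immune cells on the authors' UMAP map (axes without unit), UUO samples on the left and Control samples on the right, with NK cells in red and the classes nearest to them in other colours. The 530 NK cells of UUO and the 272 of Control form the same compact group on the left edge, and a few NK cells lie with the proliferating lymphocytes near the centre.

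The content of single NK cells was compared through the UMIs and genes detected in each, which mix the transcript content of a cell with the depth of its library. Over all 802 cells the UMIs ran from 501 to 8539 with a median of 1860 and the genes from 307 to 2703 with a median of 880. Only 16 NK cells held over 5000 UMIs, and 80 held fewer than 1000. Median UMIs per NK cell were 2077 and 1796 in UUO 1 and 2. In Control 1 to Control 6 they were 1113, 1291, 2121, 1863, 1877 and 1295, so that both UUO samples lay inside the Control range. Median genes were 965 and 875 in UUO 1 and 2, against 620, 714, 1041, 895, 820.5 and 644 in Control 1 to Control 6, with the same overlap.

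For the test, medians of fewer than 20 NK cells were left out, which removed Controls 1 and 2. UMIs per NK cell averaged 1937 ± 199 over the 2 UUO samples and 1710 ± 361 over 3 Control samples (SD of sample medians), and the fitted ratio was 1.15 (95% interval 0.730 to 1.81, limma adjusted p over 19 classes 0.568). For genes it was 1.16 (0.803 to 1.66, adjusted p 0.466). Neither passed, where 10.5% of the 19 classes did for UMIs and 5.26% for genes. With Controls 1 and 2 included, at a minimum of 10 cells, the log2 differences were 0.40 for UMIs and 0.31 for genes, against 0.20 and 0.21, and neither passed (adjusted p 0.319 and 0.284).

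The UMIs of NK cells were then set against those of the other lymphocytes in the same library. The median UMIs of NK cells were 1.03 and 0.827 times those of all other lymphoid cells in UUO 1 and 2. In Controls 1, 2, 5 and 6 the ratio was 0.979, 0.884, 0.840 and 0.873, and in Control 3-4 it was 1.13. The log2 difference was -0.02 (exact permutation p 0.857, n = 2 and 5), and the samples overlapped. By median UMIs NK ranked 4 and 7 among the 9 lymphoid classes in UUO 1 and 2 and between 3 and 7 in the Control samples. Proliferating lymphocytes were the lymphoid class with the highest median UMIs in every counted sample. Their medians were 5233 and 5827 in UUO 1 and 2 and 3806 to 8530 in the Control samples, some of which held few of these cells.

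**Figure D4:**
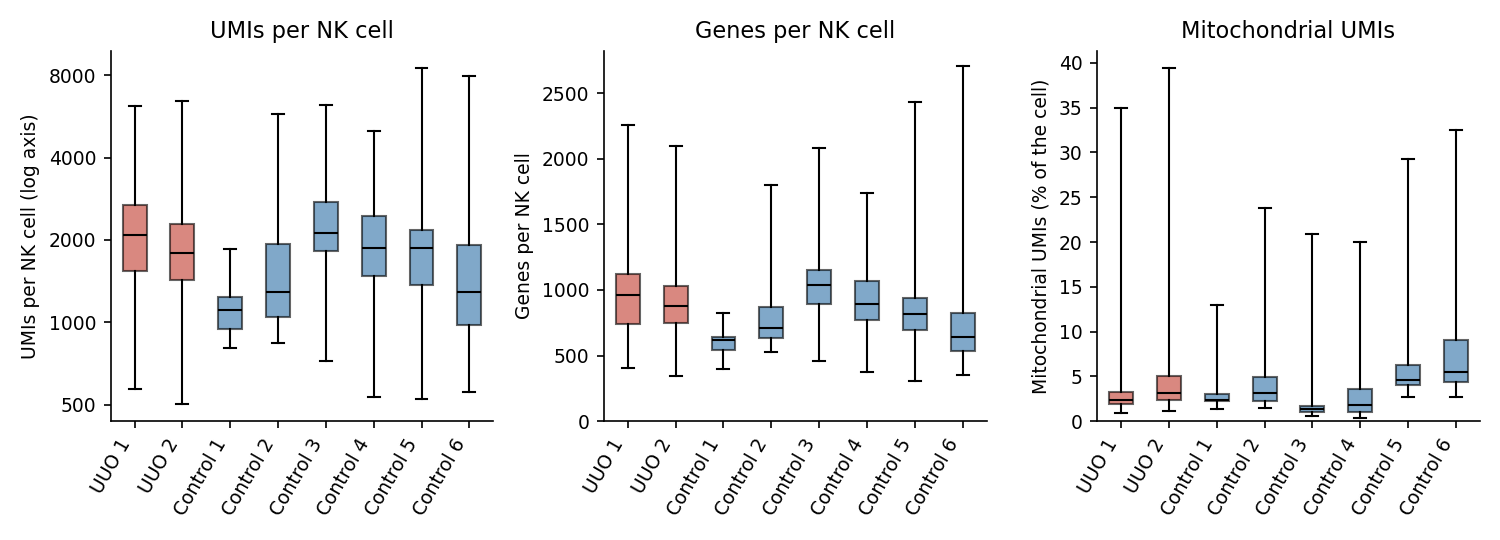
UMIs (log axis), genes detected and percent mitochondrial UMIs per NK cell in each sample (boxes span the quartiles with the median as a line, whiskers reach the lowest and highest cell, red UUO and blue Control). Median UMIs of 2077 and 1796 in UUO lie inside the Control range of 1113 to 2121, and median mitochondrial percent is highest in Controls 5 and 6.

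Genes detected rise with UMIs, so they were also compared at equal UMIs. At 2000 UMIs an NK cell showed 934 and 931 genes in UUO 1 and 2. It showed 944, 879 and 865 genes in Control 3-4, Control 5 and Control 6. The fitted ratio was 1.04 (95% interval 0.949 to 1.14, limma adjusted p 0.712), where 0% of the 19 classes passed (2 at an unadjusted p under 0.05). Among the lymphoid classes of a sample, NK lay in the upper or middle ranks, at 5 and 4 of 9 in UUO 1 and 2, at 2 of 7 in Control 3-4 and at 4 of 9 in Controls 5 and 6. NKT cells were close to NK in every one of these samples, with 928 and 922 genes in UUO 1 and 2 and 941, 890 and 865 in Control 3-4, Control 5 and Control 6. This was not particular to NKT. CD8 effector cells had 951 and 964 genes in UUO 1 and 2 and 917, 897 and 876 in the same Control samples. CD4 T cells detected fewer genes at the same UMIs, 806 and 804 in UUO 1 and 2 and 790, 748 and 725 in these Control samples. These class values describe the same transcripts that defined the classes and were not tested against each other.

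**Figure D5:**
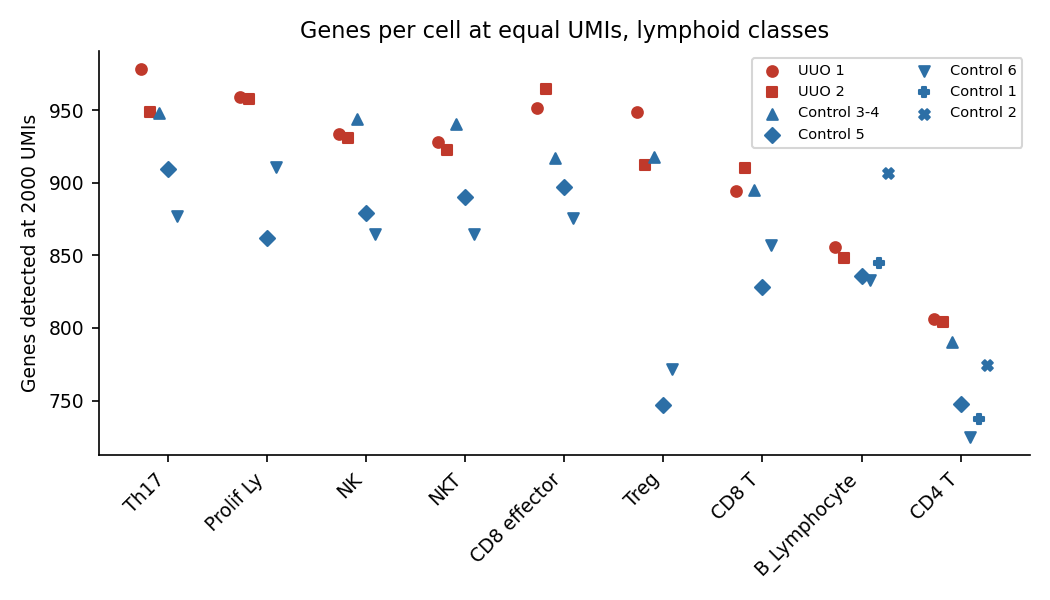
Genes detected at 2000 UMIs in each lymphoid class and counted sample with at least 20 cells (red symbols UUO, blue symbols Control). NK values run from 865 to 944 genes, next to those of NKT cells and of CD8 effector cells (876 to 964). They lie above those of CD4 T cells, which run from 725 to 806.

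Mitochondrial transcripts, whose share rises in stressed or leaking cells, made up less of the UMIs in NK cells than in the median cell of any whole library (8.74% to 17.4%). Their median share was 2.37% and 3.13% in UUO 1 and 2. In Control 1 to Control 6 it was 2.36%, 3.16%, 1.32%, 1.76%, 4.60% and 5.48%. Both UUO samples lay inside the Control range, Controls 3 and 4 were lowest and Controls 5 and 6 highest. The difference between the group means was -1.12 percentage points (95% interval -6.30 to 4.05, limma adjusted p 0.887, n = 2 UUO and 3 Control), where 0% of the 19 classes passed and 0 had an unadjusted p under 0.05. It was -2.29 points without Control 3-4, -0.76 without Control 5, -0.32 without Control 6 and -0.75 without UUO 1, and passed in none of these. Values of CD4 T cells lay near those of NK cells in the same library. CD4 T cells had 2.84% and 3.55% in UUO 1 and 2, against 2.57%, 3.13%, 2.09%, 4.63% and 5.24% in Controls 1, 2, 3-4, 5 and 6. Low values were thus not particular to NK. Over samples with at least 20 cells, medians averaged 2.71% (UUO) and 3.49% (Control) for CD8 effector cells. They averaged 2.91% and 3.67% for Th17, and 2.75% and 3.87% for NK. In Control, Treg cells (19.0%) and proliferating lymphocytes (16.6%) were higher.

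A minority of NK cells held at least 10% mitochondrial UMIs. These were 14 of 235 and 42 of 295 in UUO 1 and 2, or 5.96% (exact 95% binomial interval 3.29 to 9.79) and 14.2% (10.5 to 18.8). They were 1 of 13, 1 of 19, 2 of 47 and 4 of 81 in Controls 1 to 4, and 6 of 58 and 12 of 54 in Controls 5 and 6, or 10.3% (3.89 to 21.2) and 22.2% (12.0 to 35.6). Of the other lymphoid cells, 3.50% and 9.77% reached this level in UUO 1 and 2, below NK cells. In Controls 1, 3 and 4 the share was 7.69%, 4.26% and 4.94% of NK cells, above the 6.17%, 2.87% and 2.89% of other lymphoid cells. In Control 2 it was 5.26% of NK cells, below the 9.09% of other lymphoid cells. These differences were not tested. In Control 5 the share was higher in the other lymphoid cells, at 171 of 484 cells (35.3%). Treg cells there had a median of 30.3% and proliferating lymphocytes of 29.6%, where NK cells had 4.60%. In Control 6 the shares were 22.2% for NK and 22.2% for the other lymphoid cells, which differed by class. Treg cells there had a median of 24.6%, against 5.48% for NK cells and 3.59% to 8.53% for the remaining lymphoid classes. With all cells at or above 10% left out, the difference in the NK share of all cells was 1.88 in log2 odds and did not pass (limma adjusted p 0.0844).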

How the data were processed

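Whole kidneys were sequenced with the 10x Chromium 3′ kit for single cells, per the labels' protocols. The submitters' processing notes name Cell Ranger 6.0.1, Seurat 4.0.1 and mm10. Filters on cells, the calling of classes and the settings of the map are not described in these sources. UMIs and genes per cell are whole counts deposited by the authors without normalization. The mitochondrial percent and the class of each cell were deposited by the authors as well, as were UMAP coordinates, a score without unit, for 25200 cells. Of the per-sample columns 0 were set aside. Counts per gene were not analysed here, so no doublets were called and no marker checked.

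The value tested was each sample's share, median or ratio, since cells are not replicates. Shares were fitted as log2((n + 0.5)/(N - n + 0.5)) and NK to class ratios as log2 with the same offset, with limma 3.58.1 in R 4.3.3, two-sided, Benjamini-Hochberg adjusted over all classes fitted, threshold 0.05. Per-cell medians were taken for samples with 20 cells of a class and fitted for the 19 classes with 2 such samples per group. Genes at equal UMIs were read at 2000 UMIs from a line of log2 genes on log2 UMIs with 1 slope per class. Exact permutation tests enumerated all 21 choices of 2 among 7 counted samples (smallest p 0.0476). The edgeR 4.0.16 quasi-likelihood test on cell numbers was an alternative. Nearest neighbours were found with scipy 1.17.1. The functions were tested on simulated data. The simulated shares had less spread than the Control samples have on average, the same for all classes, and a larger shift than NK showed. The simulation thus checks the code and not its power on these data. Depth ranged from 4375942 to 56755823 UMIs per sample, and the binomial intervals of single samples cover counting error only, while limma intervals rest on the spread between samples. The rule for named classes was NK throughout, with other immune classes only beside a test of NK against them or as neighbours on the map. Macrophages were described in detail after their values were seen. The class, the lists and the pooling of Controls 3 and 4 were chosen with earlier results of these data known.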

Additional observations from a re-analysis of the deposited data

Results flagged for a closer look

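The NK share of all cells in Control 3-4, 2.06%, lay far from the other Control samples, of which the nearest held 0.395%. The gap was 0.943 of the whole Control range, above the critical value of 0.71 for 5 samples. The NK share of immune cells in Control 3-4, 16.3%, was also far from the nearest other Control sample at 7.62%, with a gap of 0.726 of the range. Chance alone marks about 1 in 20 such groups. With Controls 3 and 4 kept as separate samples neither value stood out by this rule, because each has the other beside it. The NK share of lymphoid cells in Control 3-4, 18.8%, did not exceed the limit (gap 0.468). Why these libraries hold more NK cells was not tested.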

How the results depend on the processing

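The NK share of all cells was higher in UUO under all 20 alternatives, by 1.26 (edgeR with TMM) to 2.36 (replicate block) on the log2 scale, beside 0.06 on the arcsine scale. It passed in 3 of them: without Control 3-4, in the libraries over 10000 cells alone, which also lack Control 3-4 (2.19), and as a centred log-ratio (1.79). Leaving out each sample gave 1.34 to 2.28. The share of immune cells, near 0, had the other sign without Control 3-4 or UUO 1 (range on leaving out each sample -0.23 to 0.28), in the libraries over 10000 cells alone (0.081), with the replicate block (0.48), as a centred log-ratio (0.078) and with cells of at least 1000 UMIs (0.0067). The share of lymphoid cells had the other sign with the replicate block (0.034). The number of classes called against NK was 0 to 1 on leaving out each sample, 1 in the libraries over 10000 cells alone (macrophages both times) and 4 with the replicate block (macrophages, B lymphocytes, DC and pDC). NK UMIs relative to other lymphocytes had the other sign without Control 3-4 or UUO 2 (range -0.18 to 0.14), in the libraries over 10000 cells alone (0.11) and against T cell classes and NKT alone (0.010). The causes were not tested. Of 290 values over 19 results, 269 kept direction and call. None of the main fits had passed, so keeping the call meant not passing again, which says little with 2 UUO samples. The map distance and the number of classes called have no direction to keep. Replicate numbers 1 and 2 occur in both groups but same-numbered samples did not deviate together (r = -0.25 and -0.0037 over 28 classes). With 2 UUO samples, whose deviations mirror each other, these values cannot show whether the numbers mark pairs. The difference fitted with the block rests on the samples numbered 1 and 2 alone, and Control 3-4, Control 5 and Control 6 add nothing to it. The block is therefore a weak basis for the 4 classes called. It could not be fitted for per-cell measures, since Controls 1 and 2 held under 20 NK cells. Where 1 UUO sample was left out, the other was assumed to vary like the Control samples. Leaving out Controls 5 and 6, or NK cells over 3 units from the class centre, was added after seeing the data.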
